A study of Homo sapiens with 16 samples.

Results

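The response of SH-SY5Y cells to the mitochondrial toxin MPP was examined on flat culture dishes (2D). SH-SY5Y is an established human neuroblastoma line of sympathoadrenal origin, often differentiated into cells with neuronal features. The members are all genes of the deposited table in the 8 flat-dish libraries, 4 untreated and 4 treated, out of 16 libraries in the study; the remaining 8 came from cells in a silk-collagen scaffold (3D), 4 untreated and 4 treated. All cultures had been differentiated for 15 days into what the labels call dopamine-like neurons, with agents that the labels do not name. Treated dishes received 1 mM 1-methyl-4-phenylpyridinium (MPP) for 48 h from day 13, while untreated dishes received none, and no other treatment is given for either group. Cells of both flat-dish groups were lifted with Accutase, pelleted and frozen before RNA extraction and poly-A selection. Since nothing in the labels ties the 4 libraries of a group to different cultures, a p-value here reflects only how far these samples spread, which may be technical.

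MPP is the active product of the parkinsonian compound MPTP. It enters catecholamine cells through their monoamine transporters, gathers in mitochondria and blocks complex I, the NADH dehydrogenase that feeds electrons into the respiratory chain. Complex I is assembled from subunits encoded in the nucleus and subunits encoded in mitochondrial DNA, so both sets of transcripts bear on the toxin's target. Cells whose respiration fails are known to engage the integrated stress response, in which the transcription factor ATF4 switches on amino acid transport and synthesis, and to depend more on glycolysis for ATP.

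Recovered read totals were 34643854 to 46359070 in the untreated and 30399672 to 41813620 in the treated flat-dish libraries. Of the 19898 genes in the table, 16984 had a normalised count of 10 or more in at least 4 of the 16 libraries and were tested with limma on log2(value + 1). A gene was called when its p, adjusted by the Benjamini-Hochberg method over all genes tested, was under 0.05. The log2 changes below are treated minus untreated on that scale, with their standard error (SE), and understate the change of low genes. A principal component analysis of the 8 libraries put 45.4% of the variance on a first component, with untreated libraries at -47.3 to -33.0 and treated libraries at 33.2 to 47.4. All 7 defining markers of noradrenergic neuroblasts were present, with summed counts of 255815 to 283524 untreated and 243409 to 259408 with MPP. Of 8 midbrain dopamine neuron markers, LMX1A, FOXA2, EN1, SLC6A3 and KCNJ6 were not analysed here, and the other 3 summed to 78.1 to 110.1 untreated and 54.9 to 114 with MPP. The noradrenergic markers were thus abundant in sum and the 3 measured midbrain markers low. The noradrenergic sum was uneven, with DBH at 142087 to 160587 untreated and TH at only 319 to 367. In bulk RNA, fewer cells of a type and less RNA per cell cannot be told apart.

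MPP changed 5866 of the 16984 genes tested on the dish, or 34.5%, of which 2998 (17.7% of genes tested) were higher and 2868 (16.9%) lower. Among them 686 were higher and 398 lower by at least 2-fold, together 6.38% of genes tested, and 38.8% of all genes had 4 treated values that all lay on one side of the 4 untreated ones. The median change of all genes was 0.02. Scaling libraries to equal read totals raised that median to 0.12 and the share of calls that were upward from 51.1% to 70.3%, while equal totals over nuclear genes alone put the share at 42.4%; small changes are read with that in mind. The sections that follow describe the groups of genes from the mitochondrion outward. Each list count is to be read beside the 17.7% higher and 16.9% lower of all genes.

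**Figure D1:**
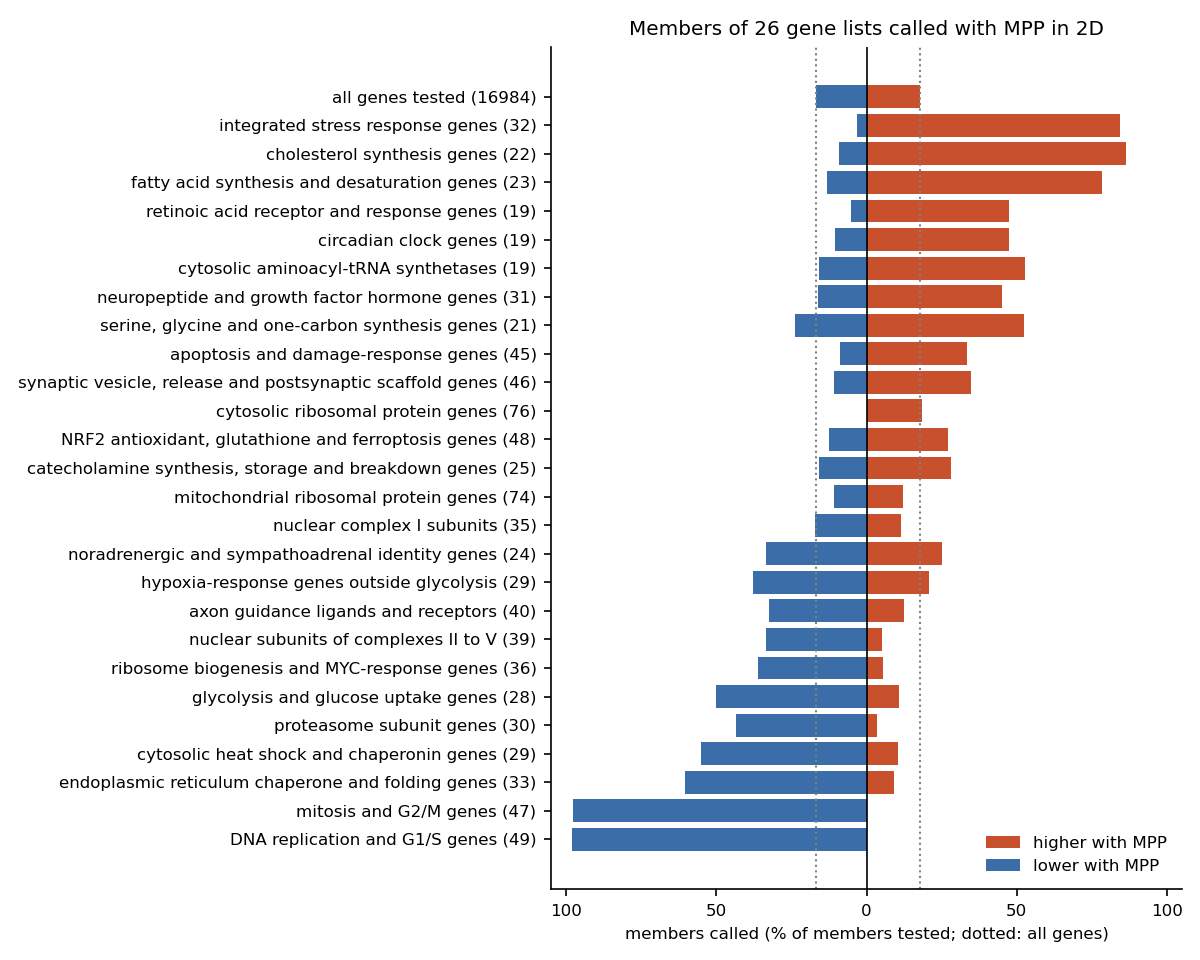
Percent of the tested members of 26 gene lists called higher (right, red) or lower (left, blue) with MPP on the flat dish, with the number tested in brackets; dotted lines mark the 17.7% higher and 16.9% lower over all genes. Cholesterol synthesis, integrated stress response and fatty acid synthesis genes lie far to the right and DNA replication and mitosis genes far to the left.

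The transcripts of mitochondrial DNA had the lowest median changes of the 57 gene lists, -3.08 for complex I mRNAs and -4.25 for the other mRNAs. The 13 mRNAs encoded there specify core subunits of complexes I, III, IV and V, and all 13 fell, as did both ribosomal RNAs and the proline tRNA. Together the mRNAs took 9.62% ± 1.65 (SD, n = 4) of reads in the untreated libraries and 0.874% ± 0.0754 (SD, n = 4) with MPP, and the groups did not overlap: 7.72, 11.6, 10.1 and 9.06% against 0.949, 0.831, 0.791 and 0.926%. The difference of -8.75 percentage points had p = 0.0286 in a two-sided exact permutation test, the smallest value that 4 against 4 libraries allow. With ribosomal and transfer RNAs included, the share went from 11.3% ± 1.90 (SD, n = 4) to 1.60% ± 0.117 (SD, n = 4).

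Along the genome (chrM, GENCODE 29 annotation of GRCh38) the loss was uneven. The ribosomal RNAs, which are among the first genes of the heavy-strand transcript and form the mitochondrial ribosome, fell least. RNR1 (chrM:648-1601) had 42852, 58974, 51214 and 58281 normalised counts untreated and 36279.5, 32878, 32519 and 38849 with MPP, which leaves 66.5% of the untreated mean. RNR2 (chrM:1671-3229) was at 432777, 661858, 583173 and 566123 untreated and 218398, 203649, 199717 and 232123 treated, leaving 38.1%. Neither gene's groups overlapped, and both calls were past the threshold (log2 -0.58 and -1.38, adjusted p = 0.00134 and 8.90e-07), though RNR2 was not called with quantile normalisation (adjusted p = 0.189) and has nuclear copies that can share its reads.

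The complex I subunits encoded next fell further. ND1 (chrM:3307-4262) was at 200633, 294880.0, 258873 and 230108 untreated against 30942, 27468, 26627 and 30602 treated, and ND2 (chrM:4470-5511) at 197555, 285646, 252048 and 233978 against 29550.1, 25524, 24726 and 29737. Of the untreated means 11.7% and 11.3% remained. Further along, ND4L, ND4 and ND5 kept somewhat more, with 13.9%, 14.8% and 14.7% of their untreated means. ND3 (chrM:10059-10404), a small subunit at the hinge of the complex, went from 35963, 40323, 45360.4 and 54938 to 825, 996, 854 and 996, a remainder of 2.08% (log2 -5.57, SE 0.13, adjusted p = 2.17e-18). It thus fell 48.1-fold while ND4, downstream on the same strand, fell 6.76-fold. ND6, on the other strand (chrM:14149-14673), was at 40192, 63316, 54771 and 47502 untreated and 4648, 4509.7, 3847 and 4533 treated (log2 -3.54, adjusted p = 7.53e-13); its reads cannot be told from those of the opposite strand because strandedness is not given.

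Subunits of the other complexes fell as well, by differing amounts. COX1, the catalytic subunit of cytochrome c oxidase and the most read gene of the table in untreated cells, had 710233, 1157600.0, 964006 and 832670.0 normalised counts untreated and 63006, 54292, 52849 and 64569 with MPP. The remainder was 6.41% for COX1, 3.56% for COX2 and 3.01% for COX3, so the third oxidase subunit fell 33.3-fold where the first fell 15.6-fold. CYTB, the only complex III subunit in mitochondrial DNA, went from 253729, 397247, 322797 and 282787 to 14345, 13059, 11806 and 13931 (4.23% left). The ATP synthase genes kept more, 7.95% for ATP8 and 12.4% for ATP6; these 2 genes overlap at chrM:8527-8572, as ND4L and ND4 overlap at chrM:10760-10766, so their counts share sequence. The proline tRNA gene TRNP (chrM:15956-16023), at the far end, dropped from 2470.3, 3417, 2750.3 and 2815 to 22.6, 39.5, 31.2 and 25.5, or 1.04% (log2 -6.56, SE 0.18, adjusted p = 2.59e-17); without strand its reads and those of antisense RNA look alike. The SD of the 4 untreated mRNA shares was 1.65 percentage points, with replicate 2 highest at 11.6% and replicate 1 lowest at 7.72%, and every treated library lay below 1%.

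**Figure D2:**
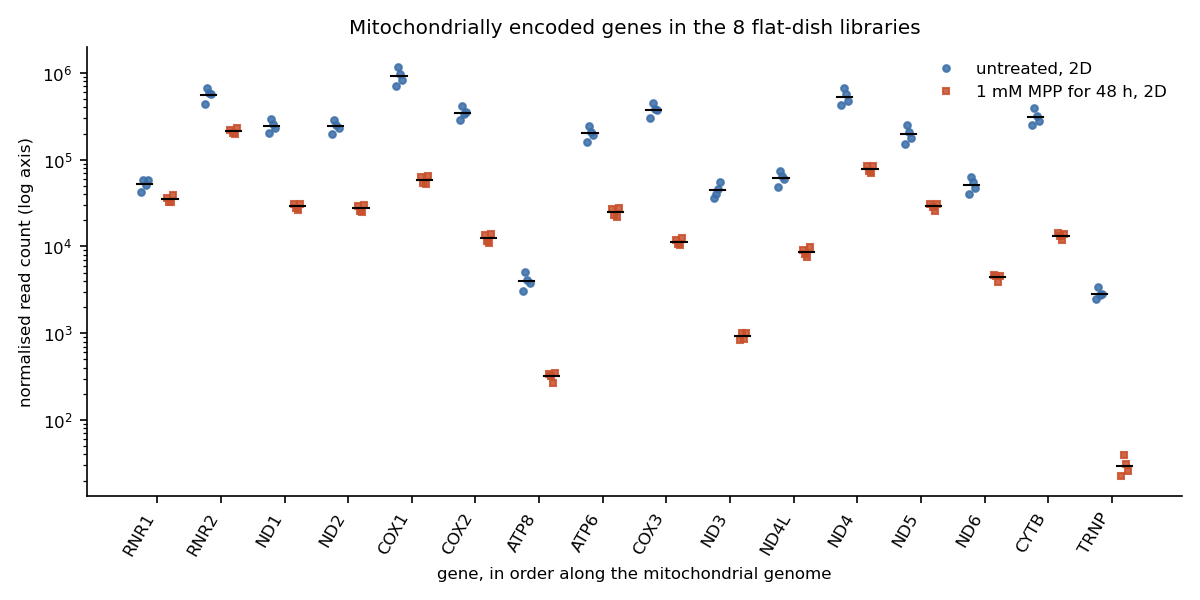
Normalised read counts (log axis) of 16 mitochondrially encoded genes in genome order, with 1 point per library, blue circles for 4 untreated and red squares for 4 MPP-treated flat-dish cultures and a black bar at each group's mean. The gap between the groups is narrowest at RNR1, where 66.5% remained, and widest at TRNP, where 1.04% remained.

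Nuclear genes of the respiratory chain moved far less. Of 35 nuclear complex I subunits tested, 4 were higher and 6 lower (5 and 3 with equal read totals; median log2 -0.097), where 34.5% of all genes were called. NDUFC2, of the membrane arm, fell from 584, 455, 468 and 448 to 281, 268, 273 and 306 (log2 -0.79, SE 0.13, adjusted p = 1.01e-04), and NDUFA5 and NDUFB10 fell by 0.39 and 0.35 on the log2 scale. Of 39 subunits of complexes II to V, 2 were higher and 13 lower, led by the ATP synthase genes ATP5F1D (log2 -0.58) and ATP5F1C (log2 -0.49), and by 4 higher and 6 lower with equal read totals. Among 17 complex I assembly factors, 5 rose and 2 fell (7 and 1 with equal read totals). NDUFAF5, needed for early assembly, rose from 179, 260.1, 249.7 and 255 to 426, 409, 399.8 and 410.0 (log2 0.81, SE 0.13, adjusted p = 6.94e-05).

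Genes that copy, transcribe and process mitochondrial DNA were divided. Of 35 tested, 6 rose and 12 fell (median log2 -0.17), against 17.7% and 16.9% of all genes, and with equal read totals 7 rose and 7 fell. TFAM, which packages mitochondrial DNA and starts its transcription, was at 1463, 1566, 1465 and 1369.7 untreated and 1093, 1002, 1079 and 1242 treated, with no overlap (log2 -0.41, SE 0.10, adjusted p = 0.00404). POLRMT, the mitochondrial RNA polymerase, was at 3024, 3032, 2665 and 2830.4 and 3238, 3098, 2919 and 3081; the groups overlapped and it was not called (log2 0.096, adjusted p = 0.413). FASTKD5, which matures non-canonical mitochondrial mRNAs, fell from 1040.0, 814, 887 and 958 to 464, 404, 529 and 503 (log2 -0.96, adjusted p = 4.13e-07). The exonuclease REXO2 and the RNase P subunits HSD17B10 and TRMT10C, which cut tRNAs from the primary transcript, fell by 0.70, 0.55 and 0.51. On the other side, the DNA polymerase POLG and the nucleotide reductase subunit RRM2B rose, at log2 0.48 and 0.61. Mitochondrial ribosomal protein genes moved little, with 9 of 74 higher and 8 lower (13 and 4 with equal read totals), among which MRPL23 fell from between 569 and 632 to between 214 and 364 (log2 -1.13).

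Of 33 chaperone, protease, dynamics and mitophagy genes of the mitochondrion, 7 rose and 4 fell (8 and 2 with equal read totals, 6 and 7 with equal nuclear totals). These were 21.2% and 12.1%, against 17.7% and 16.9% of all genes. UCP2, an inner-membrane carrier, rose from 587, 576, 572 and 488 to 1124, 957, 1083 and 1161 (log2 0.96, SE 0.10, adjusted p = 2.17e-07), and ATF5, a factor tied to the mitochondrial unfolded protein response, from 296, 284, 316 and 301 to 576, 608, 520.0 and 508 (log2 0.88, adjusted p = 1.52e-06). Both genes' groups stood apart. The matrix chaperones went opposite ways: HSPA9 rose (log2 0.40) and HSPD1 fell (log2 -0.27). The orphan receptor ESRRA, a regulator of respiratory genes, fell from between 1044 and 1059.6 to between 590.4 and 666 (log2 -0.72, adjusted p = 2.83e-04).

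Genes of the integrated stress response rose together. Of 32 tested, 27 rose and 1, the chaperone CLGN, fell (log2 -0.48); the median log2 change was 0.99 and 16 rose at least 2-fold. Promoters of the 3 called members of smallest p that hold the CCAAT-enhancer and ATF response element TGATGNAAN (N any base, searched on both strands of the 250 bases before the start) are printed here because ATF4 is known to act through this element; capitals mark the match or its reverse complement. Sequences are from RefSeq, build GRCh38.p14, written 5′ to 3′ along the gene's strand.
ASNS, chr7:97872428-97872516, minus strand: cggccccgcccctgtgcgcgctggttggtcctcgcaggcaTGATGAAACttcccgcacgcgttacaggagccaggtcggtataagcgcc
ATF3, chr1:212565176-212565264, plus strand: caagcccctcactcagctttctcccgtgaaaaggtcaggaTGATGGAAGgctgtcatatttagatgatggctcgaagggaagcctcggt
CHAC1, chr15:40953221-40953309, plus strand: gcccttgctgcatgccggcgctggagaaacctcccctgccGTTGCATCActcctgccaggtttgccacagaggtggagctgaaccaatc
The matches end 59, 182 and 201 bases before the RefSeq start of the promoter table. That start can lie inside the GENCODE gene span, as it does for ASNS and CHAC1 and, further on, DHCR7, HMGCS1, PCNA and RFC3. Of 29 list members with a promoter in the table, 4 held the element (13.8%, FGF21 being the other), against 1.53% of the 13114 tested genes with a promoter; a match describes these letters and is not a shown binding site.

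ATF4 itself was at 3760.2, 3534, 3914 and 3939.8 normalised counts untreated and 8066, 8101, 7964 and 7682 with MPP. Its treated mean was 2.10-fold the untreated one and the groups stood far apart (log2 1.07, SE 0.060, adjusted p = 9.66e-12). ASNS, asparagine synthetase (chr7:97852118-97872542), was at 2279.9, 2347, 2243 and 2217 untreated and 7288, 7329.5, 6769 and 6934 treated, with little spread in either group (log2 1.64, SE 0.055, adjusted p = 9.73e-16). DDIT3, the pro-apoptotic factor CHOP, rose from 389, 476, 444 and 431 to 2507, 2948, 2442 and 2121 (log2 2.52, SE 0.12, adjusted p = 3.14e-13). CHAC1, which breaks down glutathione, rose from 153, 158, 223.04 and 144 to 701, 1055, 911 and 905, with the lowest treated library, replicate 1, still above every untreated one (log2 2.40, SE 0.14, adjusted p = 1.68e-11).

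Among the amino acid transporters, SLC7A11, which imports cystine, had the largest rise. It stood at 6.89, 4.11, 6.28 and 39.2 untreated and 434, 341, 333 and 430.3 treated (log2 5.20, SE 0.42, adjusted p = 3.13e-09). Untreated replicate 4 was higher than the other 3 and still far below the treated libraries. Its partner SLC3A2 and the leucine transporter SLC7A5 rose as well, SLC7A5 from 4329.7, 3785, 4077 and 3962 to 11369.6, 12468, 11184 and 11477 (log2 1.53, adjusted p = 6.80e-15). Secreted products of the response followed: GDF15, a stress hormone (chr19:18374731-18389176), rose from 7886, 7069, 7607 and 7369 to 50269.6, 55918, 45547 and 48538 (log2 2.74, SE 0.14, adjusted p = 1.34e-12), INHBE from between 23.3 and 38.8 to between 125 and 161 (log2 2.28) and STC2 from between 67.5 and 96.5 to between 256 and 295 (log2 1.74). FGF21, a starvation hormone named here after its values were seen, had 0 reads in all 4 untreated libraries and 24.2, 7.19, 8.91 and 0 normalised counts with MPP, so 1 treated library also stood at 0. Its treated mean was at least 14.4-fold higher than a floor of 3 reads over the untreated group, and without treated replicate 1 it was not called (adjusted p = 0.0766).

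Of 21 genes of serine, glycine and one-carbon synthesis, a pathway that ATF4 is also known to govern, 11 rose and 5 fell. The mitochondrial folate enzymes MTHFD2 and MTHFD1L rose, MTHFD2 from 1373, 1532, 1377 and 1461 to 3397, 3698, 3532 and 3504 (log2 1.30, SE 0.065, adjusted p = 1.31e-12), as did PSAT1 of serine synthesis (log2 0.92). The fallers included TYMS, which makes thymidylate for DNA synthesis, and the cytosolic enzymes SHMT1 and MTHFD1. TYMS fell from 352, 325, 316 and 325 to 129, 172, 200.4 and 189 (log2 -0.95, SE 0.20, adjusted p = 7.78e-04). Of 19 cytosolic aminoacyl-tRNA synthetases, which charge tRNAs, 10 rose and 3 fell (8 and 4 with equal nuclear totals). AARS1 rose from 4819, 4592, 4725 and 4842 to 14542, 16552, 13882 and 14176 (log2 1.64, SE 0.096, adjusted p = 1.74e-11) and YARS1, GARS1 and SARS1 by log2 1.17, 1.07 and 0.91, while FARSA and HARS1 fell by 0.44 and 0.40. Their mitochondrial counterparts did not follow: of 16, 1 rose and 3 fell (5 and 3 with equal read totals), CARS2 with the smallest p (log2 -0.75).

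Cholesterol synthesis genes rose together as well. Of 22 tested, 19 rose and 2 fell; the median log2 change was 1.35 and 14 rose at least 2-fold. The pathway runs from acetyl-CoA through mevalonate and squalene to cholesterol, and its genes are driven by the membrane-bound factor SREBP2. In order, ACAT2 rose from 888, 909, 1030.4 and 945 to 4013, 4076, 4237 and 4687 (log2 2.17). HMGCS1, a synthase early in the pathway, rose from 7856, 7180.4, 7575 and 7522 to 44018, 44886, 43171 and 47787 (log2 2.58, SE 0.076, adjusted p = 7.33e-17). Both had treated values well clear of the untreated ones.

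The mevalonate kinases did not rise as ACAT2 and HMGCS1 did. MVK rose only by log2 0.57 and PMVK fell, from 2139, 1835, 1748 and 2045 to 1370.4, 1735, 1497 and 1315 (log2 -0.40, adjusted p = 0.0246). That fall was not called with equal read totals (adjusted p = 0.0968) or without untreated replicate 1 or 4 or treated replicate 1 or 4 (adjusted p from 0.0633 to 0.0786). MVD, the next enzyme, rose most of the pathway, from 2006, 2335, 2563 and 2421 to 15016, 16756, 15644 and 15099 (log2 2.75, SE 0.10, adjusted p = 6.80e-15). IDI1, FDPS and FDFT1, which build farnesyl diphosphate and squalene, rose by log2 1.18, 1.83 and 1.86. SQLE, which oxidises squalene, went from 3268, 3049, 3042 and 2971 to 10289, 10376, 10267 and 11685 (log2 1.79) and LSS, which closes the sterol ring, from 713, 723, 791 and 891 to 2486, 2998, 2805 and 2943 (log2 1.85).

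Among the genes of the sterol-modifying steps, CYP51A1 (log2 0.99), MSMO1 (2.08), NSDHL (1.36), HSD17B7 (1.34), ERG28 (0.62), EBP (0.94), SC5D (0.90) and DHCR7 rose, DHCR7 from 5543, 5249.9, 5412 and 5619 to 23384, 23332, 23604 and 25506 (log2 2.13, SE 0.058, adjusted p = 2.59e-17). The sterol-14 reductase step is served by TM7SF2 and LBR. TM7SF2 was at 5466, 5019.6, 5231 and 5565 and 6106, 6277, 6989 and 6594 and was not called (adjusted p = 0.0814; 0.0200 with equal read totals), and LBR, also a lamin receptor of the nuclear envelope, fell from 1807, 1783, 1826 and 1615 to 1217, 1268, 1256 and 1158 (log2 -0.52, SE 0.086, adjusted p = 7.21e-05). All 22 genes had groups that did not overlap, where 38.8% of all genes did.

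**Figure D3:**
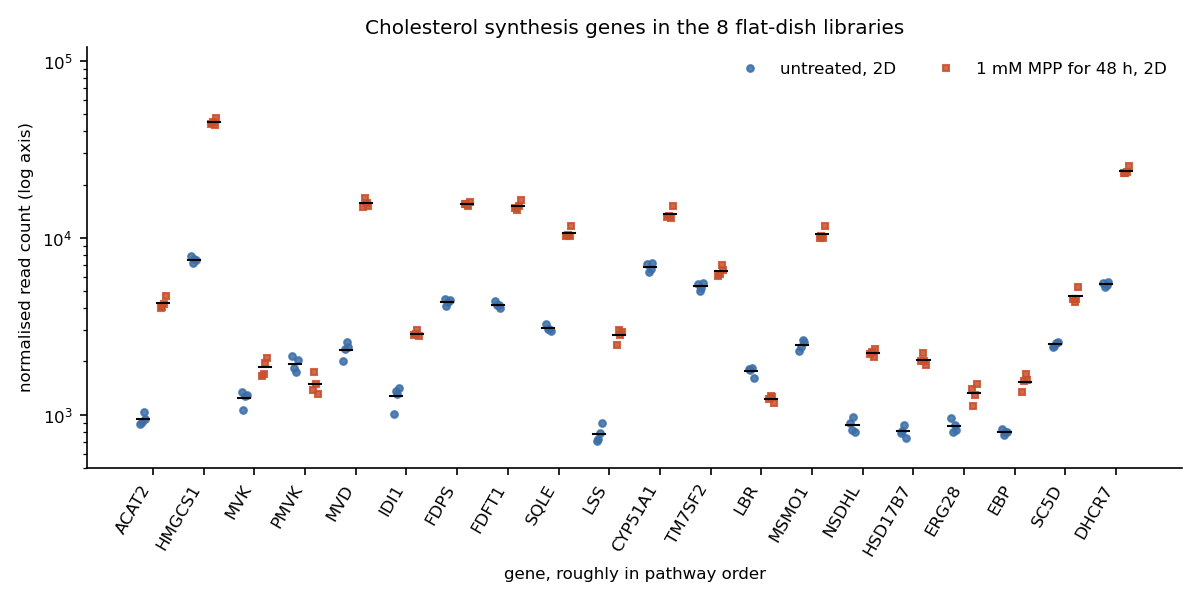
Normalised read counts (log axis) of 20 of the 22 cholesterol synthesis genes, roughly in pathway order, with 1 point per library, blue circles for 4 untreated and red squares for 4 MPP-treated flat-dish cultures and a black bar at each group's mean. Treated points lie above untreated ones for all genes but PMVK and LBR.

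None of the 17 cholesterol gene promoters in the table held the sterol response element TCACNCCAC in the 250 bases before the start on either strand, where 0.785% of tested promoters did; promoters of SQLE and FDFT1, among others, were not analysed here. CCAAT, the box bound by NF-Y, a known partner of SREBP, was present in 13 of 17 (76.5%) against 33.9% of tested promoters. The box was also in 28 of 39 mitosis promoters (71.8%) and 22 of 41 replication promoters (53.7%), lists whose genes fell. It was thus not particular to the cholesterol genes. The 2 cholesterol genes of smallest p that hold CCAAT are printed, chosen after their values were seen. Capitals mark CCAAT or its reverse complement (RefSeq, GRCh38.p14).
DHCR7, chr11:71448397-71448527, minus strand: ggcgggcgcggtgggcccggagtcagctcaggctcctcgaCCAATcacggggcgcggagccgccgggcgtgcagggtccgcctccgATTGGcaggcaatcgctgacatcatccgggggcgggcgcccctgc
HMGCS1, chr5:43313468-43313607, minus strand: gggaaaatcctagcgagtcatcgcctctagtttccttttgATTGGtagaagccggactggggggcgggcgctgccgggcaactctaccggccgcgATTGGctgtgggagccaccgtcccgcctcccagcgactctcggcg
Each holds 2 matches, which end 89 and 43 bases before the RefSeq start in DHCR7 and 150.0 and 95 bases before it in HMGCS1.

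The regulators of the pathway moved with it in part. SREBF2, which encodes SREBP2, rose from 12844, 12249, 11647 and 12392 to 26067, 27347, 26037 and 28365 (log2 1.13, SE 0.057, adjusted p = 1.32e-12), and the feedback protein INSIG1 rose too, from 2096, 1908, 1893 and 2029 to 6859, 6226, 6343 and 8057 (log2 1.79, adjusted p = 9.63e-13). Of 15 such genes tested 7 rose and 3 fell (7 and 1 with equal read totals). Fatty acid genes rose in 18 of 23 tested and fell in 3, with a median of 0.59. FASN, the fatty acid synthase, rose from 29526, 30999.8, 29081 and 34535 to 124248, 128779, 121543 and 143622 (log2 2.06, SE 0.081, adjusted p = 1.42e-14), SCD, the main desaturase, from between 45275 and 50444 to between 112755 and 129650.0 (log2 1.31), and ACSS2 and FADS2 by log2 1.17 and 1.08. The elongase ELOVL2, which lengthens polyunsaturated chains, fell (log2 -0.78). Of 24 genes of mitochondrial fatty acid oxidation and ketone use, 4 rose and 7 fell (8 and 7 with equal read totals), where 17.7% and 16.9% of all genes did: CPT1A, the gate of fatty acid entry, fell from between 6608 and 7187 to between 4727 and 5223 (log2 -0.49), and OXCT1, which activates ketones, rose (log2 0.63). The endothelial lipase gene LIPG rose from 37.1, 10.3, 29.8 and 10.6 to 228, 246, 208 and 319 (log2 3.65, SE 0.40, adjusted p = 3.09e-07).

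Genes of the dividing cell fell almost without exception. Of 49 DNA replication and G1/S genes, 48 fell and none rose, with a median log2 change of -1.11 and 31 down at least 2-fold. Of 47 mitosis and G2/M genes, 46 fell and none rose (median -1.17, 35 at least 2-fold). The single exceptions were POLD3 (log2 -0.30, adjusted p = 0.0503) and CENPI (log2 -0.22, adjusted p = 0.331), both named for being the exceptions; POLD3 was called lower by edgeR on the recovered reads (adjusted p = 0.0447). MKI67, the standard marker of cycling cells, was at 6406, 5521, 5049.7 and 6994 untreated and 1664, 1497, 1681 and 2201 with MPP (log2 -1.77, SE 0.16, adjusted p = 3.21e-08). PCNA, the sliding clamp of DNA polymerase (chr20:5114953-5126626), fell from 1995, 1784, 1878 and 1844 to 829, 812, 828 and 883 (log2 -1.16, SE 0.087, adjusted p = 1.14e-09). FEN1, which trims Okazaki fragments, fell from 2820.1, 2322, 2345 and 2306 to 965, 890.3, 973 and 974 (log2 -1.36). CDC6, which loads the replicative helicase, fell from 1156, 1016, 985 and 1034 to 292, 184, 264 and 238 (log2 -2.11, SE 0.18, adjusted p = 5.83e-09). Treated values of these genes lay in a narrow band far under the untreated ones.

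In mitosis, TOP2A fell from 9775, 9098, 8343 and 9019.5 to 3821, 3833, 3306 and 4072 (log2 -1.27), the spindle factor TPX2 from between 2243 and 2826 to between 845 and 1146 (log2 -1.29), the kinesin KIF11 from between 2129.8 and 2347 to between 611 and 751 (log2 -1.69) and the kinetochore gene NDC80 from between 501 and 624 to between 135 and 170.4 (log2 -1.82). The 8 lowest called genes outside every list with a mean of at least 50 and non-overlapping groups included APOH, DHRS2 and C4orf50, described further on, and the other 5 were the cohesin acetylase ESCO2 (log2 -2.42), the PCNA partner PCLAF (-2.39), FAM111B (-2.29), the spindle protein SKA3 (-2.26) and the helicase BRIP1 (-2.12). Matches to the E2F motif, spelled TTTGGCGC or TTTCCCGC on either strand, were sought in the 250 bases before the start. They were in 15 of 41 replication genes with a searched promoter (36.6%), against 2.87% of tested promoters. Among mitosis genes 2 of 39 held a match (5.13%). A match describes these letters and is not a shown binding site. The 3 replication genes of smallest p that fell and hold a match are printed, chosen after their values were seen. The match is in capitals (RefSeq, GRCh38.p14), and the matches end 51, 47 and 166 bases before the RefSeq start.
PCNA, chr20:5126634-5126721, minus strand: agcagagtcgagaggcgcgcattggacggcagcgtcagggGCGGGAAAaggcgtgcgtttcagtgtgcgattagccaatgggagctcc
RFC3, chr13:33818054-33818141, plus strand: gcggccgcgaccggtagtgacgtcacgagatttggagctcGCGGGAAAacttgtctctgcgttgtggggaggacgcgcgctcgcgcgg
MCM3, chr6:52284869-52284956, minus strand: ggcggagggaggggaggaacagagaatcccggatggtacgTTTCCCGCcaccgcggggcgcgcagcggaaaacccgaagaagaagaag
RFC3, a subunit of the clamp loader, fell from 993, 1055, 1023 and 864 to 329, 385, 429.8 and 364 (log2 -1.38).

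Of 8 replication-dependent histone genes tested, 4 fell and none rose; these mRNAs are poorly captured by poly-A selection. Regulators of cycle entry were mixed, with 7 of 23 higher and 8 lower (7 and 5 with equal read totals). CDKN1A, which encodes the inhibitor p21, rose from 8082, 7537, 7419.9 and 7341 to 13935, 16262, 14233 and 14674 (log2 0.96, SE 0.073, adjusted p = 1.59e-09), and CCNG1, BTG2 and GADD45A rose by log2 0.52, 0.63 and 0.44. Cyclin D1 (CCND1) fell from 11580.4, 11125, 10193 and 10388 to 6533, 5836, 6845 and 6415 (log2 -0.76, adjusted p = 7.35e-05), and CCND3, CDK2 and RBL1 fell as well. Of 45 apoptosis and damage-response genes, 15 rose and 4 fell (22 and 3 with equal read totals). BBC3, the apoptosis inducer PUMA, rose from 619, 556, 659 and 613 to 1307, 1765, 1467 and 1263 (log2 1.23), SESN2, which restrains mTORC1, from between 483 and 637 to between 1501 and 1884 (log2 1.57) and the death receptor gene TNFRSF10B by log2 0.72. CYCS, cytochrome c, fell (log2 -0.47) together with the survival gene BCL2L2 (log2 -0.47).

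Protein-folding genes of the endoplasmic reticulum fell, in contrast to the integrated stress response. Of 33, 20 fell and 3 rose (14 and 6 with equal read totals; median -0.23). HSPA5, the chaperone BiP, was at 14309, 13007, 13352 and 13918 untreated and 6894, 6165, 6607 and 7141 treated, with 49.1% of the mean left (log2 -1.03, SE 0.082, adjusted p = 3.16e-09). CALR and HSP90B1, further lumenal chaperones, fell from between 16675 and 17971 to between 9251 and 10267 and from between 20720.4 and 22963 to between 10577 and 11889 (log2 -0.82 and -0.90), and PDIA4 by log2 -0.60. The risers were XBP1, HERPUD1 and EDEM1 (log2 0.67, 0.81 and 0.38), a transcription factor and a pair of degradation components. In the cytosol, 16 of 29 heat shock and chaperonin genes fell and 3 rose (11 and 6 with equal read totals), with DNAJB1, CCT3, STIP1 and HSPH1 down (log2 -0.54, -0.47, -0.38 and -0.46) and HSF1, the heat shock factor, up (log2 0.61). Of 30 proteasome subunits 13 fell and 1 rose, which became 3 and 2 with equal read totals, so most of these calls depend on scaling; PSMC3 (log2 -0.47) was called under both. Of 36 ribosome biogenesis and MYC-response genes 13 fell and 2 rose (8 and 4 with equal read totals); NOP58 and NOP56 of the box C/D particle fell (log2 -0.68 and -0.65), and MYCN, the amplified oncogene of other neuroblastomas, fell from 246, 287, 232 and 222 to 104, 88.9, 81.3 and 113 (log2 -1.35, SE 0.25, adjusted p = 2.25e-04). Cytosolic ribosomal protein genes were called higher in 14 of 76, or 18.4%, near the 17.7% of all genes, and lower in none (45 were higher with equal read totals), by at most log2 0.37; they have many pseudogene copies that can share reads.

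Glycolysis genes were lower rather than higher. Of 28 genes of glycolysis and glucose uptake, 14 fell and 3 rose (median -0.19). The largest fall was in TXNIP (chr1:145992435-145996600), an arrestin that blocks glucose uptake and binds thioredoxin, from 9283, 8818, 8581 and 8333 to 1457, 1322, 1078 and 1185 (log2 -2.80, SE 0.11, adjusted p = 1.03e-14). Its relative ARRDC4 fell from 1357, 1481, 1329.6 and 1369.7 to 598, 655, 567 and 561 (log2 -1.22). LDHA, which turns pyruvate into lactate, fell from 10359, 9426, 9582 and 8279 to 3845, 3865, 4035 and 4212 (log2 -1.23, SE 0.070, adjusted p = 1.19e-11) and the trunk enzyme TPI1 from between 16023 and 18353 to between 10061 and 10498 (log2 -0.72). PFKFB2, which makes the activator of phosphofructokinase, rose from 675, 816, 734 and 861 to 1265, 1323, 1246 and 1386 (log2 0.76). The other 2 risers were not called with equal nuclear totals.

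Hypoxia-response genes outside glycolysis fell in 11 of 29 and rose in 6 (6 fell and 7 rose with equal read totals). HIF1A itself rose from 9372, 8899, 8347 and 8977 to 16287, 15610.4, 14920.3 and 17745 (log2 0.86, SE 0.10, adjusted p = 1.44e-06) and its relative EPAS1, or HIF-2 alpha, fell from 5656, 5734, 5197 and 5538 to 3299, 3229, 3161 and 3255 (log2 -0.77). Of the targets, the angiogenic factor VEGFA rose from 4315, 4879.8, 4912 and 4784 to 8425, 8975, 8127 and 7192 (log2 0.79, SE 0.091, adjusted p = 7.09e-07), NDRG1 rose (log2 0.66), and CA12 and EGLN3 fell (log2 -2.27 and -0.74). In the citric acid cycle and its shuttles, 9 of 43 rose and 11 fell (11 and 8 with equal read totals), not far from the 17.7% and 16.9% of all genes. PCK2, the mitochondrial enzyme that makes phosphoenolpyruvate and a known ATF4 target, rose from 1158, 1080.4, 1059 and 1102 to 3086, 3331, 3127 and 2754 (log2 1.48, SE 0.078, adjusted p = 2.75e-12). GOT1 and SUCLG2 rose by log2 0.68 and 0.66, while the dicarboxylate carrier SLC25A10, the kinase PDK2 and fumarase FH fell (log2 -0.85, -0.74 and -0.42). In the pentose phosphate and nucleotide pathways (9 higher and 7 lower with equal read totals) 5 of 26 rose, with TKT first (log2 0.53), and 9 fell, with UMPS of pyrimidine synthesis and PFAS and PAICS of purine synthesis down (log2 -0.88, -0.78 and -0.54).

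Redox and metal genes moved in both directions. Of 48 NRF2, glutathione and ferroptosis genes, 13 rose and 6 fell (19 and 2 with equal read totals), and the risers of smallest p, CHAC1, SLC7A11, TFRC and SLC3A2, include 3 that are also integrated stress response genes. NFE2L2, which encodes NRF2, fell (log2 -0.40), as did the peroxiredoxin PRDX2 (log2 -0.35). TFRC, the transferrin receptor through which cells take up iron, rose from 1080.5, 1410.4, 1524 and 1538 to 4674, 5046, 4762 and 5595 (log2 1.86, SE 0.14, adjusted p = 1.01e-09), and FTH1, the ferritin heavy chain, also rose (log2 0.45). All 5 metallothioneins tested fell, MT2A from 1456, 1243, 1036 and 1029 to 732, 644, 651 and 736 (log2 -0.77, SE 0.13, adjusted p = 6.85e-05), MT1E from 74.1, 55.5, 63.6 and 72.0 to 7.27, 19.8, 28.95 and 14.1 (log2 -2.003) and MT3 from between 15.5 and 50.8 to between 1.62 and 10.8 (log2 -2.23); metallothionein genes are close copies whose reads can be shared. The zinc exporter SLC30A1, controlled by the same metal sensor, fell by 0.63 on the log2 scale. Autophagy and lysosome genes were called at 24.6% higher and 17.5% lower (14 and 10 of 57), near the 17.7% and 16.9% of all genes; the counts were 20 and 6 with equal read totals and 12 and 12 with equal nuclear totals. The receptors SQSTM1 and OPTN and the phagophore protein WIPI1 rose (log2 0.50, 0.67 and 0.84), and the lysosomal genes CTSA, MCOLN1 and GLA fell (log2 -0.46, -0.64 and -0.64).

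Of 25 catecholamine synthesis, storage and breakdown genes, the pathway of the cells that take MPP up, 7 rose and 4 fell (5 and 7 with equal nuclear totals). TH, the rate-limiting enzyme (chr11:2163929-2171877), stood at 319.7, 359.8, 319 and 367 untreated and 583, 725, 560.1 and 514 with MPP; the groups did not overlap (log2 0.79, SE 0.11, adjusted p = 5.27e-06). GCH1, which makes the cofactor of TH, rose (log2 0.43). DDC, the decarboxylase that follows, was at 2849, 2795, 2820.2 and 2517 and 2207, 2286, 2463 and 2249, with no overlap but not called (log2 -0.25, adjusted p = 0.0560; 0.0491 by DESeq2). Without untreated replicate 4, its lowest untreated library, it was called lower (adjusted p = 0.0475). DBH, which turns dopamine into noradrenaline, was at 160587, 143648, 142087 and 148595 and 119539, 130338, 134450.0 and 131058 and was likewise not called (log2 -0.21, adjusted p = 0.0544; 0.0304 by DESeq2); with quantile normalisation it was called in the opposite direction (log2 0.52, adjusted p = 0.00224). MAOA, which breaks monoamines down, was at 2840.3 to 3389.7 and 3036 to 3709.7 and was not called (adjusted p = 0.367).

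Transporters of monoamines changed in opposite directions. The noradrenaline transporter SLC6A2, an entry route for MPP, fell from 2577, 2791, 2648 and 2709.8 to 1347, 1365, 1498 and 1640.2 (log2 -0.88, SE 0.15, adjusted p = 1.00e-04). The vesicular transporter SLC18A1 fell from 2587, 2248, 2509.9 and 2389 to 1657, 1562, 1720.4 and 1964 (log2 -0.50, adjusted p = 6.10e-05). Its relative SLC18A2, which stores MPP in vesicles, was higher by a small margin that the processing decides: 998, 862, 1033 and 1008 untreated against 1226, 1142, 1179 and 1064 treated, log2 0.24 with an adjusted p of 0.0390. The call was lost in edgeR on the recovered reads (adjusted p = 0.0510), with equal nuclear totals (adjusted p = 0.110) and without any 1 of 6 libraries (all but untreated replicate 3 and treated replicate 4; adjusted p up to 0.143). The plasma membrane monoamine transporter SLC29A4 fell (log2 -0.44) and the efflux pump ABCB1 rose (log2 0.35).

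Transcripts of 2 abundant proteins of the catecholamine storage granule, VGF and CHGB, changed about 2-fold in opposite directions. VGF (chr7:101162509-101165593) was at 195452, 192395, 180641 and 184246 untreated and 394645, 407367, 403417 and 403249 treated, 2.14-fold the untreated mean (log2 1.10, SE 0.085, adjusted p = 1.95e-09). CHGB, chromogranin B (chr20:5911430-5925361), went from 215736, 196587, 208072 and 211111 to 99144, 109088, 106775 and 99799, with 49.9% of the mean left (log2 -1.004, SE 0.077, adjusted p = 1.60e-09). These granins thus exchanged places, since CHGB had the higher counts in every untreated library and VGF in every treated one; counts of different genes also depend on their length. The granin SCG2 rose (log2 0.38), and the granule cytochrome CYB561 fell (log2 -0.78). Of 23 familial Parkinson disease genes 5 rose and 3 fell (6 and 1 with equal read totals, 5 and 5 with equal nuclear totals), near the 17.7% and 16.9% of all genes.

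**Figure D4:**
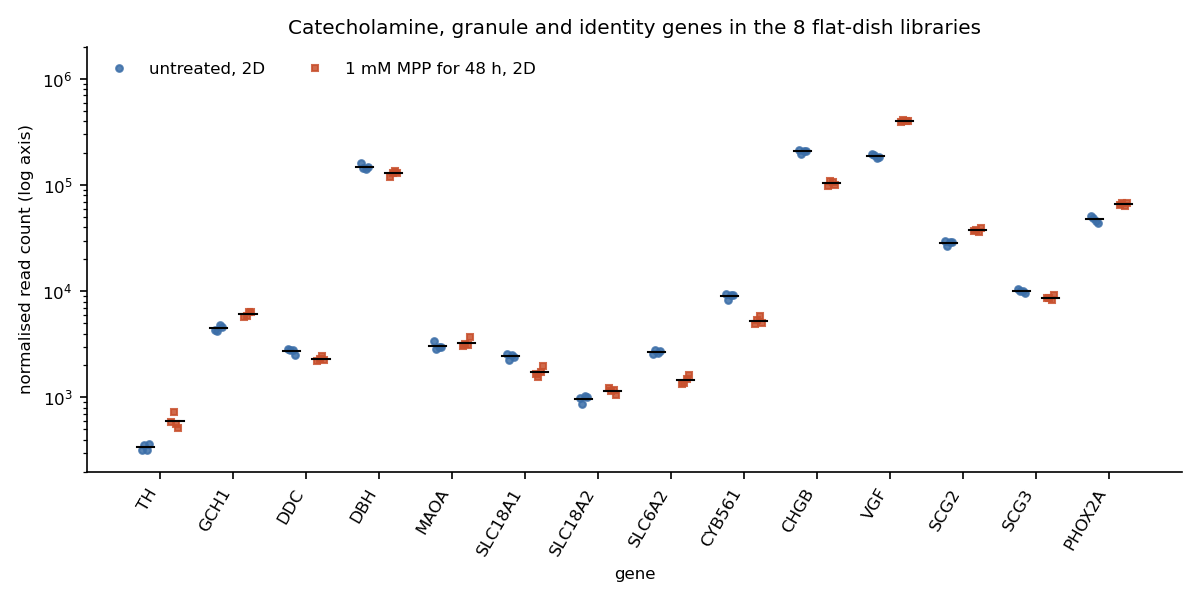
Normalised read counts (log axis) of 14 catecholamine, granule and identity genes, with 1 point per library, blue circles for 4 untreated and red squares for 4 MPP-treated flat-dish cultures and a black bar at each group's mean. VGF and CHGB exchange places between the groups, and TH and PHOX2A are higher with MPP.

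Factors of noradrenergic identity moved in both directions. Of 24 genes of this kind, 6 rose and 8 fell, against 17.7% and 16.9% of all genes. PHOX2A, a homeobox factor that specifies noradrenergic neurons, rose from 51515, 49174, 45704 and 43666 to 64891, 67200.2, 63944 and 68194 (log2 0.48, SE 0.078, adjusted p = 6.28e-05). HAND1, GATA2 and INSM2 fell, HAND1 from between 2664 and 3219.9 to between 1319.7 and 1439.8 (log2 -1.10), GATA2 from between 5749.7 and 6382 to between 2591 and 3121 (log2 -1.14) and INSM2 from between 4595 and 4930.2 to between 1693 and 1740.5 (log2 -1.46). DLK1, a marker of sympathoadrenal progenitors, fell from 42099, 41061, 38524 and 33542 to 19885, 19885, 18862 and 17319 (log2 -1.03, adjusted p = 6.63e-09). The receptor gene RET rose from between 105070.0 and 113037 to between 140846 and 154947 (log2 0.45), and the antisense transcript HAND2-AS1, whose reads cannot be told from an overlapping partner without strand, rose (log2 0.59). Of 18 mesenchymal-state genes 3 rose, MAFF and VIM with the smallest p (log2 0.55 and 0.34), and none fell.

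Neuronal structure genes changed by small amounts. MAP2 was at 10619, 9491, 8887 and 10938 and 9364, 9106, 9648 and 12783 (log2 0.026, adjusted p = 0.875) and TUBB3 at 26178, 23294, 22838 and 22854 and 22264, 21999, 23821 and 23581 (log2 -0.053, adjusted p = 0.686); for both the groups overlapped, neither was called, and their direction changed with the scaling. Of 42 cytoskeleton and axon growth genes 12 rose and 8 fell (17 and 4 with equal read totals). The shares over all genes were 17.7% and 16.9%. TUBB2B and STMN2, a growth cone marker, rose (log2 0.63 and 0.44), and the intermediate filament genes INA and NEFH fell (log2 -0.49 and -0.42). Synaptic genes were higher in 16 of 46 and lower in 5 (9 and 6 with equal nuclear totals), with VAMP2 rising from 3642, 3751, 3919 and 4309 to 5526, 6936, 5916 and 5653 (log2 0.62) and the vesicle GTPase RAB3A falling from between 3665 and 4290.1 to between 2678 and 2928 (log2 -0.49). Axon guidance genes fell in 13 of 40 and rose in 5 (10 and 7 with equal read totals). The semaphorin and VEGF co-receptors NRP1 and NRP2 fell, NRP1 from 128, 98.7, 101 and 142 to 20.2, 8.98, 24.5 and 15.8 (log2 -2.75, SE 0.27, adjusted p = 6.36e-08) and NRP2 from 217, 252, 267 and 292 to 107, 121, 84.6 and 100.3 (log2 -1.31), together with SEMA6A (log2 -1.16) and PLXNA1 (log2 -0.66), while UNC5B rose (log2 0.67).

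Ion channel genes fell in 15 of 50 and rose in 7 (8 and 9 with equal read totals). Over all genes 16.9% fell and 17.7% rose. The calcium channel subunit CACNA2D3 rose from 544, 577, 548 and 497 to 1521, 1301, 1170.3 and 1299 (log2 1.28, SE 0.090, adjusted p = 4.38e-10), and KCNH1 and SCN3A fell (log2 -0.87 and -0.65). Of 43 neurotransmitter receptor genes 5 rose and 8 fell (6 and 6 with equal read totals). These shares, 11.6% and 18.6%, were below the 17.7% and near the 16.9% of all genes. The nicotinic subunit CHRNA4 rose from between 49.3 and 65.6 to between 118 and 158 (log2 1.21). The glutamate receptors GRM8 and GRIK3 and the serotonin receptor HTR3A fell (log2 -1.86, -1.09 and -1.68). Among trophic factor genes 5 of 19 rose and 9 fell, against 17.7% and 16.9% of all genes. The low-affinity neurotrophin receptor NGFR rose from 3553, 3187, 3221 and 3405 to 5395, 6763, 5509.8 and 5627 (log2 0.80), while BDNF fell from between 119 and 177 to between 68.6 and 82.7 (log2 -0.90).

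Circadian clock genes rose in 9 of 19 and fell in 2, against 17.7% and 16.9% of all genes. PER1 rose from 2521, 2939, 2722 and 2802 to 6809, 7292, 6298 and 5827 (log2 1.25, SE 0.10, adjusted p = 5.38e-09), BHLHE40 from 772, 817, 783 and 670.0 to 1796, 1919.8, 1752 and 1881 (log2 1.27) and TEF and NR1D2 by log2 1.20 and 0.72. Both falls were lost with equal read totals. Retinoic acid genes rose in 9 of 19 and fell in 1, with DHRS3, which reduces retinal, rising from 5046, 4934, 4817 and 4739 to 10363, 11298, 10455 and 10979 (log2 1.14, SE 0.074, adjusted p = 1.02e-10) and STRA6 and RARA by log2 0.80 and 0.61. Of 30 interferon, NF-kappaB and antigen presentation genes 9 rose and 1 fell. The chemokine gene CCL2 rose from 433, 549, 445 and 411 to 1586, 1656, 1369 and 1538 (log2 1.75, SE 0.15, adjusted p = 7.42e-09), the adhesion molecule ICAM1 from 396, 257, 272 and 322 to 974, 1089, 772 and 954 (log2 1.61) and RELB and the inhibitor NFKBIA by log2 0.98 and 0.46.

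Immediate early genes went both ways. Of 35, 10 rose and 8 fell (14 and 6 with equal read totals), against 17.7% and 16.9% of all genes. NR4A1 rose from 782, 839, 817 and 840.5 to 1824, 1816, 1668 and 1599.7 (log2 1.07) and JUND and KLF6 by log2 0.67 and 0.76, while EGR1 fell from 6562, 7235, 6989.5 and 6239.9 to 3566, 2784, 3011 and 3397 (log2 -1.09, SE 0.10, adjusted p = 5.07e-08) and KLF10 from between 3961 and 4857 to between 2130.2 and 2399 (log2 -0.96). In the Notch pathway 4 of 21 rose and 6 fell, which became 6 and 4 with equal read totals and is not far from the 17.7% and 16.9% of all genes, with the neuronal HES6 rising from 4892, 5276, 5418 and 5453 to 9260.2, 10594, 10539.7 and 9549 (log2 0.92, adjusted p = 2.56e-05) and NRARP and RBPJ falling. Matrix and adhesion genes rose in 15 of 49 and fell in 7, against 17.7% and 16.9% of all genes. ITGB4 rose from between 466 and 595 to between 1073 and 1183 (log2 1.04). The proteoglycan BGN rose from between 13.8 and 16.9 to between 55.7 and 71.1 (log2 2.02), and COL1A1 and COL3A1 fell (log2 -0.34 and -0.58). Of 31 secreted factors 14 rose and 5 fell, against 17.7% and 16.9% of all genes. The fallers included IGF2, from between 4293 and 5912 to between 2836 and 3469 (log2 -0.76), and CARTPT.

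Markers of other cell types, which an established line should lack, were also counted. The summed counts of 7 Schwann cell and glia markers were 175 to 298 untreated and 338 to 399 with MPP, with SOX10 and OLIG2 at or near 0; AQP4 rose (log2 1.29). The 4 endothelial markers summed to 32.9 to 56.9 and 77.4 to 92.4, with VWF at 17.3 to 43.1 untreated and 75.7 to 88.8 with MPP, while PECAM1 was at 0 in every untreated library. The blood markers analysed summed to 122 to 208 and 278 to 309.9, mostly CD68, with PTPRC at or near 0; AIF1, HBB and CD3E were not analysed here. The 5 fibroblast markers summed to 7495 to 7967 and 7212 to 7896. The defining genes SOX10, PECAM1 and PTPRC were at or near 0 in both groups, while the fibroblast genes COL1A1 and LUM were expressed in both, and the part of such cells in the results on glia, matrix and immune genes was not tested.

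Outside the lists, the largest rises among called genes with a mean of at least 50 and non-overlapping groups were in genes of varied function. PRDM16, a transcription regulator known from brown fat, rose from 12.1, 24.7, 21.2 and 18.0 to 201, 208, 186 and 236 (log2 3.42, SE 0.25, adjusted p = 8.17e-10). IL21R, a cytokine receptor, rose from 118, 78.1, 99.7 and 80.4 to 656, 756, 748 and 835 (log2 2.99) and the photoreceptor cadherin CDHR1 from 107, 103, 119 and 148 to 841, 707, 817 and 924 (log2 2.78). C6orf223, SCART1, SCRG1, GCKR and TMEM105 followed, with log2 changes of 3.32, 2.80, 2.63, 2.50 and 2.45. GCKR, the glucokinase regulator, had a wide untreated spread of 5.17 to 39.1 against 81.8 to 155. Among falls outside the lists and the cell cycle, APOH went from 105.1, 111, 119 and 109 to 21.8, 17.1, 17.8 and 22.9 (log2 -2.43), the reductase DHRS2 from 1124, 1014, 898 and 834 to 159.9, 225, 186 and 167 (log2 -2.39, SE 0.14, adjusted p = 2.91e-11) and C4orf50 from between 162 and 296 to between 8.98 and 86.2 (log2 -2.21), with treated replicate 2 of C4orf50 far below its group.

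Whether the dish response differs from that in the scaffold was tested as the difference of the 2 effects, which share no library. Of 16984 genes, 2602 (15.3%) differed, 1189 (7.0% of genes tested) with a lower and 1413 (8.32%) with a higher effect in 2D. In the scaffold alone, 17.0% of genes were called higher and 17.6% lower. Of the 2998 genes higher on the dish, 1375 (45.9%) were also higher in the scaffold, where they made up 47.7% of the 2882 higher genes, and 166 were lower there. Of the 2868 lower on the dish, 1327 (46.3%) were also lower in the scaffold, 44.3% of the 2997 lower genes there, and 168 were higher.

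Cell cycle genes differed between the culture forms. The effect differed for 48 of 49 replication genes and 45 of 47 mitosis genes, always lower on the dish. In the scaffold 25 replication genes rose and 2 fell, at a median of 0.39 against -1.11 on the dish. Mitosis genes did not rise as a group there: 4 rose and 3 fell, at a median of -0.094 against -1.17 on the dish. For CDC6 the difference was -2.59 (SE 0.25, adjusted p = 1.19e-07) and for MKI67 -1.08 (adjusted p = 0.00231). Untreated scaffold cells had lower MKI67 counts, 2350.0, 2576, 2373 and 2767 against 6406, 5521, 5049.7 and 6994 on the dish. PCLAF and MTFR2, a mitochondrial fission regulator, also had a lower effect on the dish (differences -2.55 and -2.54), as did ZNF90 (-3.03). The effect on mitochondrial RNA was lower on the dish for all 16 genes, and both ribosomal RNAs rose in the scaffold, RNR1 by the larger change (log2 2.31 against -0.58, difference -2.89, adjusted p = 1.48e-10). The untreated levels differed too, since mitochondrial mRNAs took on average 9.62% of reads on the dish and 4.47% in the scaffold. With MPP these shares were 0.874% on the dish and 1.24% in the scaffold.

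The effect on cholesterol genes was higher on the dish for 19 of 22 and lower for none, the median effect being 1.35 against 0.50 in the scaffold. Glycolysis genes fell less on the dish: 21 of 28 differed, 20 of them with a higher effect in 2D. LDHA changed by -1.23 on the dish and -2.95 in the scaffold (difference 1.72, adjusted p = 3.09e-11), and VEGFA by 0.79 and -2.46 (difference 3.25, adjusted p = 5.45e-14). The largest positive differences, ACTL8, CACNA1H, ADCY8, EPO, CAPN8 and FLT1 (6.52 to 5.28), belonged to genes with few reads on the dish that fell in the scaffold. FLT1, a VEGF receptor, had 1631, 1927, 2323 and 1779 normalised counts in untreated scaffold cells and 48.8, 51.8, 73.2 and 75.5 with MPP, while on the dish only treated replicate 1 had any. Of these genes CACNA1H was called on the dish, where it rose from 3.45, 2.06, 6.28 and 2.12 to 32.3, 27.0, 12.2 and 29.9, and the other 5 were not. The integrated stress response list had a median of 0.99 on the dish and 0.59 in the scaffold. Its effect differed for 16 of 32 members, against 15.3% of all genes, being higher on the dish for 12 and lower for 4. ASNS and GDF15 were among the members that did not pass the test of a difference, at -0.045 (SE 0.078, adjusted p = 0.762) and 0.15 (SE 0.19, adjusted p = 0.679).

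Catecholamine genes differed one by one. TH rose on the dish and fell in the scaffold, a difference of 1.18 (SE 0.15, adjusted p = 5.52e-06). DDC and SLC18A1 had effects of -0.25 and -0.50 on the dish and -2.33 and -2.73 in the scaffold (differences 2.08 and 2.23, adjusted p = 5.50e-10 and 5.19e-12). SLC18A2 rose less on the dish (difference -0.69, adjusted p = 4.61e-04). The noradrenaline transporter SLC6A2, which fell on the dish, had a difference of -0.94 (adjusted p = 0.00360). The dish and the scaffold also differ in handling, since only dish cells were detached with Accutase, so culture form and handling cannot be told apart.

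**Figure D5:**
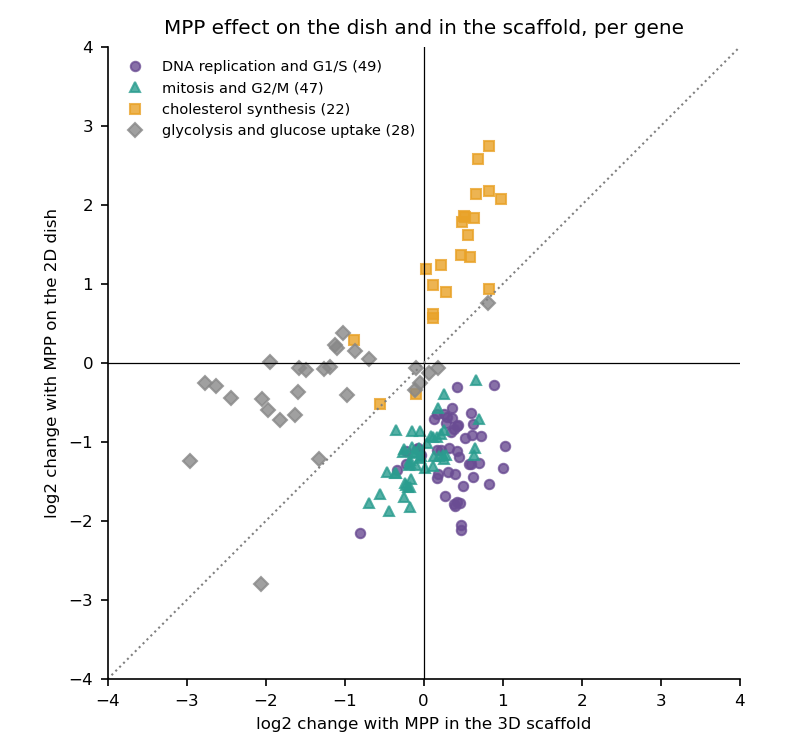
Log2 change with MPP on the 2D dish (vertical) against that in the 3D scaffold (horizontal), 1 point per gene for 4 gene lists with the number tested in brackets; the dotted line marks equal changes. Replication and mitosis genes lie below 0 on the dish and around or above 0 in the scaffold, cholesterol genes mostly lie above the line, and glycolysis genes lie to the left.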

How the data were processed

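The deposited table holds normalised counts, a signal per gene that the authors made by dividing read counts by 1 size factor per library. Per the submitters' processing notes, the tools were CASAVA 1.8.2, FastQC, STAR, featureCounts and DESeq2 on GRCh38.p13; their settings, the annotation and strandedness are not stated there. Every value was a whole multiple of its library's step within 0.01 reads (100.0% of values), which recovered the reads; 19827 of 19898 genes matched RefSeq names. All 16 libraries, in 4 groups of 4, entered 1 limma trend fit (limma 3.58.1, R 4.3.3) on log2(value + 1), with genes at 10 or more in at least 4 libraries. edgeR 4.0.16 and DESeq2 1.42.0 on the recovered reads, which called 2943 higher and 2933 lower, and 3266 higher and 3045 lower, were alternatives, as were other scalings, pseudocounts, filters, a replicate block and leaving out each dish library. On simulated data with 16530 genes tested, changed ones included, the fit called 10 unchanged genes. Mitochondrial shares used a two-sided exact permutation test.

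The members and the 57 gene lists were chosen with earlier results of these data known. Genes were named by rule: the 12 highest and 12 lowest called genes with non-overlapping groups and a mean of at least 50, up to 4 per list and direction by smallest p, a preset set of catecholamine, neuronal and regulator genes, all mitochondrial and cholesterol genes, the 8 highest and 8 lowest outside the lists, and the 6 largest differences in each direction. Some genes fitting the rule are summarised by counts only or not reported here. Motifs were sought in RefSeq promoters of GRCh38.p14; gene coordinates are from GENCODE 29 on GRCh38. Libraries of a group correlated at r = 0.981 to 0.985.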

Additional observations from a re-analysis of the deposited data

Results flagged for a closer look

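In groups of 4 libraries, a single value was taken to stand apart when its gap to the nearest other value exceeded Dixon's critical share of the group's range. Of 546 groups checked, 32 had such a value, where chance gives about 1 in 20; the normalised counts follow by library, each with the range of the other 3. Untreated replicate 1 was high for CAPN8 at 6.89 (0 to 1.03), FEN1 at 2820.1 (2306 to 2345), GOT1 at 1509.6 (1076 to 1136), NDUFC2 at 584 (448 to 468) and NRARP at 698 (477 to 497). Untreated replicate 1 was also high for PRDX2 at 7621 (6190.1 to 6319) and TUBB3 at 26178 (22838 to 23294). Untreated replicate 1 was low for NDUFAF5 at 179 (249.7 to 260.1). Untreated replicate 2 was low for SCG2 at 26838 (29070.1 to 29486). Untreated replicate 3 was high for TMEM105 at 240.3 (130.1 to 141). Untreated replicate 4 was high for CENPI at 436 (374 to 379) and SLC7A11 at 39.2 (4.11 to 6.89). Untreated replicate 4 was low for DDC at 2517 (2795 to 2849), SLC3A2 at 2305 (2488 to 2489) and UCP2 at 488 (572 to 587). Treated replicate 1 was high for FLT1 at 1.62 (0 to 0). Treated replicate 2 was high for FTH1 at 50095 (47490.3 to 47681), NGFR at 6763 (5395 to 5627) and PCLAF at 111 (74.6 to 78.3). Treated replicate 2 was low for FEN1 at 890.3 (965 to 974), HSP90B1 at 10577 (11855 to 11889) and NDC80 at 135 (166 to 170.4). Treated replicate 3 was high for COL1A1 at 2308 (2228 to 2231). Treated replicate 3 was low for GARS1 at 9513 (9992 to 10014). Treated replicate 4 was high for CYP51A1 at 15051 (13014 to 13216), DHCR7 at 25506 (23332 to 23604), EDEM1 at 4544 (4120.1 to 4166), HSPH1 at 6842 (5766 to 5923) and MAP2 at 12783 (9106 to 9648). Treated replicate 4 was also high for MSMO1 at 11716 (9951 to 10182), PLXNA1 at 4831 (4430.2 to 4479) and SQLE at 11685 (10267 to 10376). CYP51A1, DHCR7, MSMO1 and SQLE are cholesterol synthesis genes, and their calls stayed without that library.

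Effects of MPP that differed between dish and scaffold are given as the log2 change in 2D minus that in 3D, each past the limma test of the difference itself at an adjusted p under 0.05. The 2D effect was lower for ZNF90 (-3.03), RNR1 (-2.89), CDC6 (-2.59), PCLAF (-2.55), MTFR2 (-2.54), MKI67 (-1.08), SLC6A2 (-0.94) and SLC18A2 (-0.69). It was higher for ACTL8 (6.52), CACNA1H (6.34), ADCY8 (5.78), EPO (5.64), CAPN8 (5.29), FLT1 (5.28), VEGFA (3.25), SLC18A1 (2.23), DDC (2.08), LDHA (1.72) and TH (1.18). ACTL8, ADCY8, EPO, CAPN8 and FLT1 were not called on the dish itself, and the untreated scaffold libraries held most of their reads.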

How the results depend on the processing

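Across 21 alternatives, the count of genes called higher in 2D stayed between 2444 and 4360 and the count for the difference between dish and scaffold between 2142 and 3181, each within 1.5 times its main value. The count of genes called lower fell to 1844 with equal library totals, a scaling that moved the median of all genes from 0.02 to 0.12 on the log2 scale; elsewhere it lay between 2327 and 3529. Leaving out 1 library gave 2444 to 2770 genes higher, 2327 to 2740 lower and 2142 to 2475 different between dish and scaffold. Without 1 library the fall in the mitochondrial mRNA share ranged from -9.38 to -8.08 percentage points, and 3 against 4 libraries cannot give an exact p under 0.0571. Replicate numbers are shared by the groups. Same-numbered libraries deviated together little (r from -0.010 to 0.0896), which does not show a pairing by number and cannot exclude one. With the replicate block, 2912 genes were higher, 2763 lower and 2436 different; in edgeR with the same block, an alternative chosen after seeing the data, they were 2845, 2836 and 2403. The share's change of -8.75 points had an exact sign-flip p of 0.125 with the replicate block, the smallest that 4 pairs allow.

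Of 270 named genes, 257 kept their direction and their side of the threshold in every alternative run. Calls were lost in 15 of 5664 combinations of gene and alternative, for PMVK, SLC18A2, RNR2 and FGF21, and gained in 22, for DBH, DDC, POLD3 and TM7SF2. List counts moved beyond 1.5 times in 148 of 2394 combinations. DBH changed by 0.52 with quantile normalisation, and TUBB3 by 0.052 with equal library totals. MAP2 changed by -0.020 with equal nuclear totals, -0.0068 with quantile normalisation, and -0.0864 to 0.0767 over the leave-one-out fits, being negative without treated replicate 4 (-0.086) or untreated replicate 3 (-0.029). Leaving out 1 library moved ADCY8 over -0.291 to 0.876 (negative without untreated replicate 1), CAPN8 over -0.0950 to 1.17 (negative without treated replicate 2) and EPO over -6.65e-04 to 1.08 (negative without untreated replicate 2). None of these genes was called in the main analysis, and the cause of the changes was not tested. On simulated data a 1.5-fold rise was recovered in 68% of 50 changed genes and a 2-fold rise in 94% of 50, and how recovery varies with depth was not tested. The simulation changed only genes with a mean of at least 50, and far fewer than the 34.5% of genes called here. Recovery of low genes was not tested.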

Other observations

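A few genes without a single read in a group were called, and are described here after their values were seen. They were picked for that lack of reads, and the filter can be passed through the other group alone. Their folds and p-values follow in part from that choice and only describe these genes. How many tested genes had 0 reads in a group was not counted, so the counts below have no share beside them. Of genes with 0 reads in all 4 untreated dish libraries, 10 were called higher with MPP. PRUNE2, a BCH-domain protein, stood at 20.997, 25.2, 17.8 and 52.8 normalised counts with MPP and was at least 41.7-fold higher than a floor of 3 reads over the untreated group (adjusted p = 1.74e-04, limma). TRIM29, an ubiquitin ligase best known from epithelia, stood at 20.997, 19.8, 5.57 and 24.6 and was at least 25.3-fold higher (adjusted p = 1.30e-06). The homeobox gene HOXB9 had 30.7, 10.8, 13.4 and 3.52 and was at least 20.8-fold higher (adjusted p = 9.54e-04). In the other direction, 3 genes had no read in any treated library and were called lower. Among them the noncoding LINC00400 stood at 14.6, 12.3, 10.2 and 12.7 untreated and was at least 18.0-fold lower with MPP (adjusted p = 6.88e-04).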
